A study of Homo sapiens with 9 samples.

Results

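The replication-dependent histone genes were taken from a count table of SUIT-2 sublines as the rows whose symbol is that of a clustered histone gene of class H1 (H1-1 to H1-6), H2A (H2AC), H2B (H2BC), H3 (H3C) or H4 (H4C). The symbols, not the measured values, chose them, and 66 of the 42717 genes in the table met the rule. The H1 class had 6 members, the H2A class 16, the H2B class 17, the H3 class 13 and the H4 class 14. The lines S2-007, S2-020 and S2-028 are human pancreatic ductal adenocarcinoma cell lines derived from the same parental line, SUIT-2, and RNA of each was sequenced as 3 libraries from untreated cells in DMEM with serum. The study selected S2-007 as a line with maspin, a serine protease inhibitor, in nucleus and cytoplasm, and S2-028 as a line with maspin mainly in the cytoplasm, whereas S2-020 held little of it. Each condition is a single line, so a difference between lines cannot be told apart from any other difference between their cultures. The labels do not say whether the libraries of a line came from separate cultures, so p-values measure the spread between these samples, which may be technical.

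Core histones H2A, H2B, H3 and H4 form the octamer around which DNA is wrapped, and H1 is the linker histone that binds the DNA entering and leaving it. The replication-dependent genes for these proteins lie in clusters, have no introns in their classical form, and are expressed mainly in S phase, when new chromatin is assembled. Their mRNAs are known for ending in a stem-loop in place of a poly(A) tail. The stem-loop is bound by SLBP and is cut by a complex that needs the U7 snRNA. A minority of histone transcripts is polyadenylated, by use of a polyadenylation hexamer downstream of the stem-loop, and the libraries here were made after selection of polyadenylated RNA. The counts therefore describe the part of histone mRNA that passed this selection.

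Of the members, 11 lie on chromosome 1 between 149782689 and 149887965 and the other 55 on chromosome 6 between 25726063 and 27893891 (GRCh38.p14). The stem-loop was searched in the 150 bases after an annotated stop codon, as an element of 16 bases with 6 bases paired across the loop (G to T pairs included) and the bases fixed that histone genes hold in common. It was found in 66 of 66 members, at between 23 and 68 bases after the stop codon (median 36), and in 10 of 19879 other protein-coding genes (0.0503%). The most common form was shared by 38 members, and 10 forms occurred in all. In the H4 class all 14 members had a stem that begins with GGCCC, which no member of another class had. The sequences of the members with the most counts in each class, and of H2BC5 and H4C8, are shown as the sense strand of GRCh38 with the stem-loop in capitals, because this element marks the class of genes and shows the H4 form beside the others.
H1-2: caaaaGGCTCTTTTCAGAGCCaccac
H2AC6: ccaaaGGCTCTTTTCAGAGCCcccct
H2BC12: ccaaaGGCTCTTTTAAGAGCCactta
H2BC5: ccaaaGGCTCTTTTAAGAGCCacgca
H3C6: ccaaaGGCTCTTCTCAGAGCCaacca
H4C15: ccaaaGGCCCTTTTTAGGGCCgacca
H4C8: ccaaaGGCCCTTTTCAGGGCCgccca
These lie at chr6:26055739-26055764 (H1-2, minus strand), chr6:26124664-26124689 (H2AC6, plus strand), chr6:27146361-27146386 (H2BC12, minus strand), chr6:26158582-26158607 (H2BC5, plus strand), chr6:26225591-26225616 (H3C6, plus strand), chr1:149860764-149860789 (H4C15, minus strand) and chr6:26285126-26285151 (H4C8, minus strand), each just after the stop codon. The hexamer AATAAA was found within the 3000 bases downstream of the stem-loop in 61 members, at a median distance of 946 bases. It began within 20 bases of the stem-loop in 4 members only, namely H1-2 and H2BC5 at 13 bases and H2AC18 and H2AC19 at 14 bases.

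The 200 bases before the RefSeq start site were read for 61 of the 66 members from RefSeq's promoter table of GRCh38.p14. The motif TATAAA, to which the general transcription machinery binds, was searched on both strands, and so were CCAAT, the octamer ATTTGCAT that OCT1 binds, and AAACACA, an element described in H1 promoters. None of these motifs contains another. CCAAT was found in 85.2% of the members' windows, compared with 28.9% of all 27305 windows in the table, and TATAAA in 60.7% compared with 8.92%. ATTTGCAT was found in 14 of 17 H2B windows and 7 of 15 H2A windows, compared with 1.32% of all windows. Windows of neighbouring H2A and H2B genes transcribed in opposite directions can overlap, so the same site may be counted in both classes. The windows of H2AC7 and H3C4 are the same. AAACACA was found in 6 of 6 H1 windows, compared with 3.86% of all windows. CCAAT was found in every window of the H1, H2A, H2B and H3 members read, but in 3 of 12 H4 windows. The windows of H1-2, H2AC6, H2BC12 and H4C8, which had many counts in their class or a large difference between the lines, are shown 5′ to 3′ with these motifs, or their reverse complements, in capitals.
H1-2: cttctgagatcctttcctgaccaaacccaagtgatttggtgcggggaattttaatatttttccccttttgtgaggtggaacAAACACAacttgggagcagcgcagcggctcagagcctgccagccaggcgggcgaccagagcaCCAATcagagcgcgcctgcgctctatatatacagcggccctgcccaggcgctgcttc
H2AC6: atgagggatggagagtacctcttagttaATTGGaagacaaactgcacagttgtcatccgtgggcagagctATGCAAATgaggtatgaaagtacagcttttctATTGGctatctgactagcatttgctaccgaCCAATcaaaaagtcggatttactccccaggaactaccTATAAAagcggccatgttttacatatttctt
H2BC12: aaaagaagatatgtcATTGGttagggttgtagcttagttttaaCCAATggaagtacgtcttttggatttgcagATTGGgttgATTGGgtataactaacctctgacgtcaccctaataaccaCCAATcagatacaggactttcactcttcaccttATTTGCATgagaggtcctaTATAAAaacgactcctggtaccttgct
H4C8: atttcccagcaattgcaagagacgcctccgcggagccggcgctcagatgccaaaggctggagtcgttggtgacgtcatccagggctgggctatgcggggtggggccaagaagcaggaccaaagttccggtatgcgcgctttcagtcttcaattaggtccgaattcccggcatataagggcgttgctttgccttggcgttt
They lie at chr6:26056471-26056670 (H1-2, minus strand), chr6:26123972-26124171 (H2AC6, plus strand), chr6:27146859-27147058 (H2BC12, minus strand) and chr6:26285535-26285734 (H4C8, minus strand). The H2AC6 window also lies before the start of H2BC4, which is transcribed in the opposite direction.

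The total count was between 60328748 and 86253923 per library. Up to 3 counts in a library was treated as not detected (a floor that covers counting error only), and 6 members (H1-1, H2AC1, H2BC1, H2BC3, H4C6 and H4C7) never rose above it. The genes H2AC1 and H2BC1 encode histones of the testis. At least 10 counts in a library were reached by 60 members, at least 100 by 22 and at least 1000 by 8. The epithelial markers KRT8, KRT18, KRT19, EPCAM and CDH1 had summed CPM between 4266 and 16868 in each library, with CDH1 at a mean of 4.54 in S2-020 compared with 54.2 in S2-007 and 112 in S2-028. Markers of pancreatic ductal tumour cells summed to between 1087 and 1605 CPM in S2-007 and S2-028 and to between 127 and 140 in S2-020. Markers of other cell types were low, with sums of at most 5.72 for fibroblasts, 9.84 for endothelial cells and 43.6 for leukocytes (38.9 to 43.6 in S2-007, 7.73 to 12.3 in the other lines), and their part in the results was not tested.

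The histone genes of each class were highest in S2-028, intermediate in S2-007 and lowest in S2-020 when their counts were summed. Sums are given as CPM, the counts scaled to a common library size, after TMM normalization. Because they add the counts of whole genes, they are compared between lines and not between classes. The H1 class summed to 12.6, 12.7 and 13.6 in the S2-007 libraries, 8.52, 9.71 and 7.05 in the S2-020 libraries, and 383, 371 and 297 in the S2-028 libraries. The H2A class summed to 11.9, 12.3 and 12 in S2-007, 7.59, 6.68 and 5.94 in S2-020, and 89.5, 101 and 83.2 in S2-028. The H2B class summed to 75.8, 75.7 and 76.7 in S2-007, 42.1, 38.7 and 40.2 in S2-020, and 580, 574 and 507 in S2-028. In these 3 classes the lines did not overlap, with S2-028 far above the others. The H3 class had sums of 6.49, 7.47 and 8.30 in S2-007, 6.49, 6.43 and 5.41 in S2-020, and 23.1, 24.8 and 20.6 in S2-028. The H4 class had sums of 48.3, 47.4 and 45.5 in S2-007, 28.1, 25.4 and 29.5 in S2-020, and 198, 187 and 167 in S2-028. The order of the lines was the same in both, but the H3 sums of S2-007 and S2-020 were separated by only a narrow gap, since their nearest libraries round to the same value.

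Over the 66 members together, the mean summed CPM (± SD of 3 libraries) was 156 ± 0.492 for S2-007, 89.3 ± 3.10 for S2-020 and 1202 ± 110 for S2-028. S2-028 was 7.73-fold above S2-007 and 13.5-fold above S2-020, and S2-020 was 1.74-fold below S2-007. The classes differed in the size of this. S2-028 exceeded S2-007 by 27.1-fold in the H1 class, by 7.57-fold in H2A, by 7.28-fold in H2B, by 3.90-fold in H4 and by 3.08-fold in H3. Compared with S2-020 the ratios were 41.6-fold in H1, 13.5-fold in H2A, 13.7-fold in H2B, 6.65-fold in H4 and 3.74-fold in H3. S2-020 lay below S2-007 by 1.88-fold in H2B, 1.79-fold in H2A, 1.70-fold in H4, 1.54-fold in H1 and 1.21-fold in H3. The pooled SD of the log2 sums was between 0.0435 and 0.216 in the comparisons of single classes. No test was made of class sums, since the members of a class are not replicates. As the libraries are of bulk RNA, more cells that express these genes and more RNA per cell cannot be told apart.

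**Figure D1:**
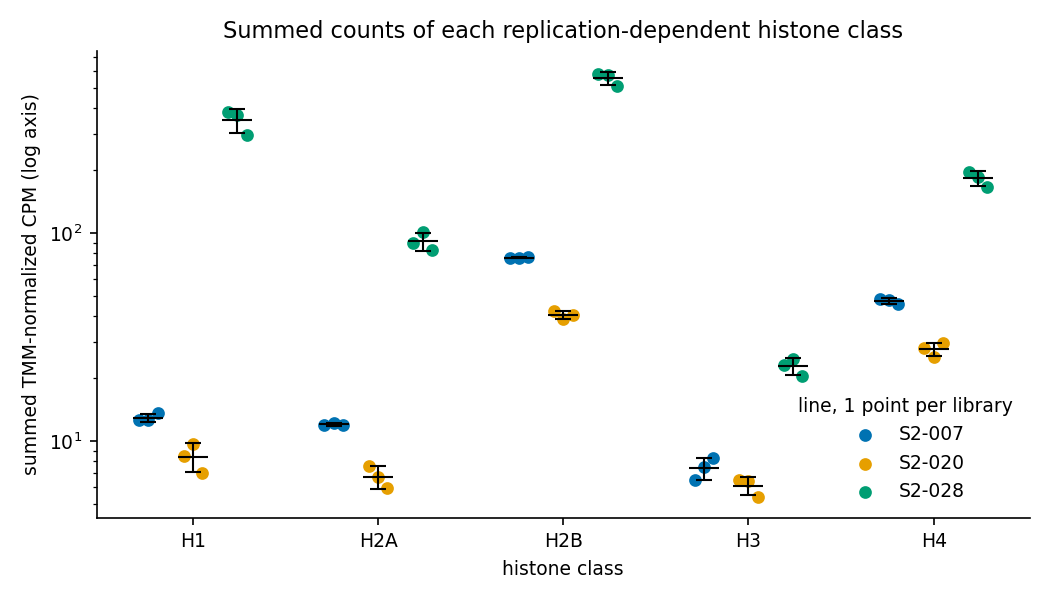
Summed TMM-normalized CPM of the members of each class (vertical log axis) in the 9 libraries, 1 point per library, with the mean and SD of each line in black. S2-028 lies above the other lines in all 5 classes, from a mean of 22.8 against 7.42 in S2-007 in the H3 class to 350 against 12.9 in the H1 class.

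A single member carried most of the counts in 3 of the 5 classes (H1, H2B and H4) in every line, so their sums largely follow it. H1-2 held 91.7% of the H1 counts in S2-007 (SD 2.29, n = 3 libraries) and 99.1% in S2-028 (SD 0.305, n = 3). H2BC12 held 76.1% of the H2B counts in S2-007 and 79.9% in S2-028, and H4C15 held 93.4% and 91.4% of the H4 counts. H2AC6 held 47.3% of the H2A counts in S2-007 and 62.1% in S2-028. H3C6 held 54.0% of the H3 counts in S2-007 but 32.7% in S2-028, where other H3 genes took a larger part. Without the most abundant member of each class, the log2 ratio of S2-028 to S2-007 was 1.47 in H1, 2.44 in H2A, 2.62 in H2B, 2.17 in H3 and 2.35 in H4, compared with 4.76, 2.92, 2.86, 1.62 and 1.96 with it. The H1 class was thus the highest by its sum and the lowest without H1-2. The share of the H1 class among all histone counts stood at 8.32% in S2-007, at 9.45% in S2-020 and at 29.1% in S2-028, and that of the H4 class was 30.3%, 31% and 15.3%. The shares of H2A were 7.74%, 7.53% and 7.60%, and those of H2B were 48.9%, 45.2% and 46.1%.

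Genes were next tested one by one, over all genes that passed the expression filter, with edgeR's quasi-likelihood test and Benjamini-Hochberg adjustment. A gene counted as called where the adjusted p was under 0.05 and the lines differed at least 1.5-fold. Between S2-028 and S2-007, 47 of the 66 members passed the filter, which needs counts in only 1 of the lines, so the passing members are not a sample of all. Of the 66, 28 (42.4%) were called higher in S2-028, compared with 10.2% of all 26371 genes tested, and 0 were called lower, compared with 8.19%. The count of members lower at an unadjusted p under 0.05 was also 0, and DESeq2 called 0 lower as well. The members called higher were 3 of 6 in H1, 7 of 16 in H2A, 9 of 17 in H2B, 6 of 13 in H3 and 3 of 14 in H4. All 3 S2-028 libraries lay above all 3 S2-007 libraries for 32 members (22% of all genes tested) and below them for 1 member (21.3%). That member, H3C11, failed the filter, with 2 counts in each S2-028 library and 10, 8 and 24 in the S2-007 libraries. The median log2 fold change was 1.81 over the tested members and 0.002 over all genes tested.

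Compared with S2-020, S2-028 was higher by the same criteria for 30 of the 66 members (45.5%), against 12.1% of the 26031 genes tested, and lower for 0, against 10.1%. Again 0 members were lower at an unadjusted p under 0.05, and 0 by DESeq2. When the second S2-028 library was left out, H4C11 was called lower, at a log2 fold change of -2.27 (SE 0.814, adjusted p = 0.0383). Its counts in the S2-028 libraries were 6, 46 and 6. Members of H1 were called in 3 of 6 cases, of H2A in 9 of 16, of H2B in 9 of 17, of H3 in 5 of 13 and of H4 in 4 of 14. The libraries were apart in this direction for 34 members (24.2% of all genes tested). In S2-020, H3C3 was listed at 0 in every library and H4C9 at 0, 0 and 2 counts. Against a floor of 3 counts in each S2-020 library, S2-028 was 25.2-fold higher for H3C3 and 9.60-fold higher for H4C9. These are approximate lower bounds, since the floor was scaled by library totals without TMM. With these genes at their bound the median log2 fold change of the 47 tested members was 2.05.

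S2-020 and S2-007 differed in fewer histone genes, and mostly in the opposite direction. Of the 66 members, 12 (18.2%) were called lower in S2-020, compared with 12.1% of the 26657 genes tested, and 1 was called higher, compared with 9.57%. The members called lower were 1 in H1, 3 in H2A, 6 in H2B, 1 in H3 and 1 in H4. The libraries of S2-020 lay below those of S2-007 for 18 members (23.8% of all genes tested) and above them for 2 (24.7%). The median log2 fold change was -0.60 over the 42 members tested and -0.05 over all genes. The comparisons share libraries, so they are not independent of each other. All S2-028 libraries above all S2-007 libraries, and these above all S2-020 libraries, was found for 16 of the 66 members, compared with 3.67% of the 28019 genes that passed the filter over 9 libraries. The 16 were 1 H1, 5 H2A, 6 H2B, 2 H3 and 2 H4 members.

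**Figure D2:**
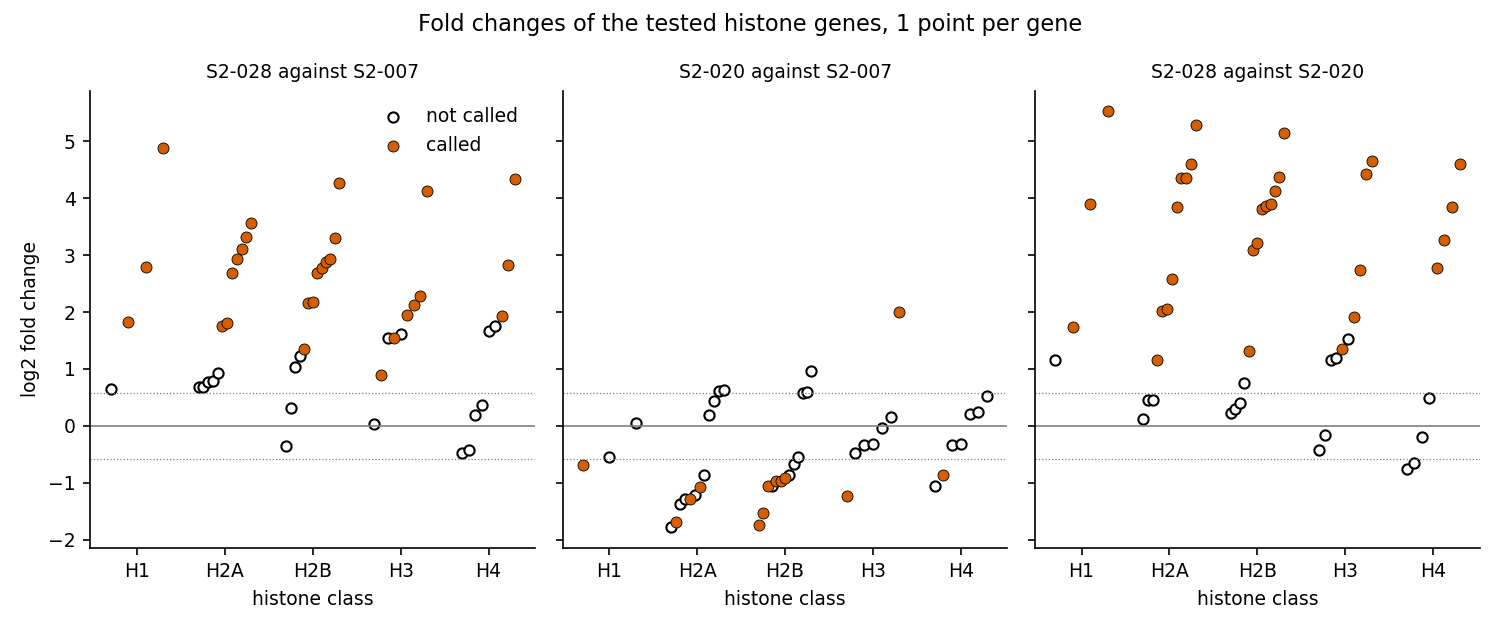
Log2 fold change (vertical axis) of each tested member by class in the 3 comparisons, 1 point per gene, filled where called, with dotted lines at 1.5-fold in either direction. H3C3 and H4C9 are drawn at their bound in the panel of S2-028 against S2-020. Filled points lie above 0 in both comparisons of S2-028 and, with 1 exception in the H3 class, below 0 in S2-020 against S2-007.

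Among the linker histones, H1-2 (NCBI gene 3006, chr6:26055740-26056470) was the gene with the largest change. Its CPM was 11.6, 11.8 and 12.1 in the S2-007 libraries, 7.68, 8.34 and 6.58 in the S2-020 libraries, and 380, 368 and 294 in the S2-028 libraries. The lines were apart, and the highest S2-007 library was far below the lowest S2-028 library. The log2 fold change of S2-028 against S2-007 was 4.88 (standard error, SE, 0.0919, adjusted p = 1.62e-19 by edgeR's quasi-likelihood test), a 29.4-fold difference that ranked 43 among all 26371 genes. Against S2-020 it was 5.52 (SE 0.103, adjusted p = 1.59e-18), and S2-020 was below S2-007 by -0.68 (SE 0.115, adjusted p = 5.71e-05). H1-2 encodes H1.2, a linker histone present in most somatic cells.

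The other linker histone genes had far fewer counts. H1-4 had 0.267, 0.484 and 0.407 CPM in S2-007, 0.501, 0.553 and 0.167 in S2-020, and 0.870, 0.814 and 2.41 in S2-028. It was called higher in S2-028 than in S2-007 (log2 fold change 1.82, SE 0.428, adjusted p = 0.00183), but without replicate 3 of S2-028 the call was lost (log2 fold change 1.13, adjusted p = 0.0711). H1-3 had at most 0.134 CPM in any S2-007 or S2-020 library and 0.854, 0.251 and 0.590 in S2-028. Its difference from S2-007 (log2 fold change 2.78, SE 0.711, adjusted p = 0.0037) lost its call without replicate 1 of S2-028 (2.35, adjusted p = 0.057). H1-5, at 0.454, 0.296 and 1.06 in S2-007, 0.237, 0.817 and 0.195 in S2-020 and 0.966, 1.36 and 0.492 in S2-028, overlapped between the lines and was not called in any comparison. H1-6, the linker histone of the testis, had a mean of at most 0.149 CPM in each line, and H1-1 had no count in any library.

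In the H2A class the members with the most counts differed in the same direction. H2AC6 had 5.73, 5.49 and 5.87 CPM in S2-007, 2.95, 3.04 and 2.34 in S2-020, and 53.1, 63.7 and 53.3 in S2-028. The lines did not overlap, and the log2 fold change was 3.32 against S2-007 (SE 0.0931, adjusted p = 7.65e-17) and 4.35 against S2-020 (SE 0.112, adjusted p = 1.62e-16). S2-020 was below S2-007 by -1.07 (SE 0.162, adjusted p = 1.82e-05). H2AC18 and H2AC19 lie on chromosome 1 and have the same transcript sequence, apart from 0.2% of the 31-base words of H2AC19, so the counts may be split between them. H2AC18 had 1.74, 1.61 and 1.41 CPM in S2-007, 0.515, 0.457 and 0.530 in S2-020, and 12.3, 12.6 and 11.6 in S2-028. H2AC19 had 1.55, 1.53 and 1.03 in S2-007, 0.640, 0.529 and 0.558 in S2-020, and 12.3, 12.3 and 10.7 in S2-028. Both were apart in the same order of lines, with log2 fold changes of 2.94 and 3.10 against S2-007 and of -1.70 and -1.28 in S2-020 against S2-007, all 4 called.

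H2AC8 had 0.347, 0.766 and 0.462 CPM in S2-007, 0.306, 0.3 and 0.0836 in S2-020, and 4.38, 3.79 and 1.93 in S2-028. It was called higher in S2-028 than in S2-007 (log2 fold change 2.68, SE 0.331, adjusted p = 1.08e-06), whereas its lower level in S2-020 was not called (-1.21, adjusted p = 0.0959). H2AC7, with a log2 fold change of 3.56 against S2-007, lies wholly inside the gene model of H3C4 on the same strand, so the reads of these genes may have been counted for either. Of the other H2A members tested, H2AC13 and H2AC14 were also called higher in S2-028 than in S2-007, by 1.81 and 1.75, and they share most of their transcript sequence (64.9% of the words of H2AC13). The call of H2AC14 was lost without replicate 1 of S2-028 (log2 fold change 1.64). H2AC11, H2AC15, H2AC16, H2AC17 and H2AC20 had log2 fold changes between 0.68 and 0.93 and were not called.

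H2BC12 (NCBI gene 85236) had the most counts of any member. It had 58.6, 57.5 and 57.6 CPM in S2-007, 31.7, 29.5 and 30.0 in S2-020, and 466, 451 and 410 in S2-028. Its libraries differed little within a line and did not overlap between lines, with log2 fold changes of 2.94 (SE 0.066, adjusted p = 2.42e-18) against S2-007, 3.87 (SE 0.063, adjusted p = 2.63e-19) against S2-020, and -0.96 (SE 0.0629, adjusted p = 1.27e-10) in S2-020 against S2-007. The gene model of H2BC12 is 8566 bases long and covers H4C9 on the opposite strand. Of its transcript words, 71.0% are shared with other genes and 37.8% with other members. Reads of these genes may therefore have been counted for either. The part of this in the level of H2BC12, and so in the H2B sums, was not tested.

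H2BC5 had 7.55, 6.73 and 7.89 CPM in S2-007, 3.97, 3.53 and 4.11 in S2-020, and 32.6, 36.5 and 30.1 in S2-028, and its log2 fold change against S2-007 was 2.16 (SE 0.103, adjusted p = 3.55e-13). H2BC11 had 1.30, 1.22 and 1.32 in S2-007, 0.598, 0.685 and 0.794 in S2-020, and 25.4, 27.6 and 21 in S2-028. Its log2 fold change of 4.27 (SE 0.14, adjusted p = 7.57e-16) was the largest in the H2B class. H2BC4, the partner of H2AC6, had 3.15, 3.04 and 2.74 in S2-007, 0.891, 1.18 and 1.09 in S2-020, and 23.0, 26.4 and 16.5 in S2-028. The lines were apart for these 3 genes, and each was also called lower in S2-020 than in S2-007, H2BC5 by -0.96, H2BC11 by -0.91 and H2BC4 by -1.53. H2BC8, H2BC9, H2BC17 and H2BC21 were called higher in S2-028 than in S2-007 by between 2.17 and 3.30. H2BC18 was called at 1.36 (adjusted p = 0.0464), a call that was lost when single libraries were left out. H2BC6, H2BC7, H2BC13 and H2BC15 were not called, at 1.03, 1.23, -0.34 and 0.31.

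The H3 class held fewer counts. H3C6 had 3.27, 4.81 and 3.91 CPM in S2-007, 2.91, 3.02 and 2.87 in S2-020, and 7.02, 7.83 and 7.46 in S2-028. It was called higher in S2-028 than in S2-007 by 0.90 (SE 0.162, adjusted p = 0.000125), the smallest of the called changes in that comparison. H3C4 had 0.508, 0.685 and 0.367 in S2-007, 0.39, 0.313 and 0.571 in S2-020, and 9.95, 9.75 and 7.44 in S2-028. Its log2 fold change was 4.12 (SE 0.226, adjusted p = 4.00e-12) against S2-007, whereas S2-007 and S2-020 overlapped (-0.33, adjusted p = 0.623).

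H3C10 had 1.04, 0.336 and 0.910 CPM in S2-007, 0.445, 0.216 and 0.335 in S2-020, and 2.21, 2.27 and 2.16 in S2-028. It was called higher in S2-028 than in S2-007 (1.54, SE 0.326, adjusted p = 0.000692). It was also called lower in S2-020 than in S2-007 (-1.23, SE 0.465, adjusted p = 0.0412) although these libraries overlapped, and that call was lost without replicate 1 or 3 of S2-007 or replicate 2 or 3 of S2-020 (adjusted p between 0.0812 and 0.219). H3C12, at 0.828, 0.752 and 1.45 in S2-007, 1.17, 1.18 and 1.10 in S2-020 and 0.805, 1.17 and 1.10 in S2-028, overlapped in all comparisons. Its log2 fold change was 0.03 (SE 0.327) in S2-028 against S2-007. H3C13 and H3C15, with at most 24 and 26 counts in a library, were called higher in S2-028 than in S2-007 by 2.12 and 1.95. By edgeR's test their adjusted p was 0.0399 and 0.0392, and both calls were lost when single libraries were left out. H3C15 shares 100% of its transcript words with H3C14, which was not called (1.54), so the counts may be split between them.

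H3C2 was the only member called higher in S2-020 than in S2-007. It had 0.134, 0.242 and 0.0815 CPM in S2-007, 0.752, 0.913 and 0.223 in S2-020, and 0.483, 0.752 and 0.180 in S2-028. The libraries of S2-007 and S2-020 overlapped, and the log2 fold change of 2.00 (SE 0.594, adjusted p = 0.00997) was no longer called without the second S2-020 library (1.64, adjusted p = 0.0976).

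In the H4 class, H4C15 had 45.7, 44 and 42.3 CPM in S2-007, 23.9, 22.4 and 27.8 in S2-020, and 182, 170 and 152 in S2-028. The lines were apart, with log2 fold changes of 1.94 (SE 0.0726, adjusted p = 7.10e-15) against S2-007 and 2.77 (SE 0.0818, adjusted p = 1.25e-15) against S2-020, and of -0.87 (SE 0.0804, adjusted p = 2.53e-08) in S2-020 against S2-007. H4C14 shares 98.6% of its transcript words with H4C15 and had 0.321, 0.430 and 0.434 in S2-007, 0.139, 0.216 and 0.223 in S2-020, and 3.45, 2.52 and 2.39 in S2-028. Which of these genes a shared read was counted for is not given in the sources used here. The gene model of H4C15 is 16753 bases long, and H2AC19 and H3C15 lie inside it on the opposite strand.

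H4C8 had 0.481, 0.349 and 0.706 CPM in S2-007, 0.501, 0.541 and 0.209 in S2-020, and 10.3, 10.9 and 9.62 in S2-028. S2-007 and S2-020 overlapped, and S2-028 was above both, by 4.33 (SE 0.213, adjusted p = 6.40e-13) against S2-007 and by 4.61 (SE 0.235, adjusted p = 4.55e-12) against S2-020. H4C3 had 0.668, 0.497 and 0.434 in S2-007, 1.11, 0.913 and 0.335 in S2-020, and 0.918, 0.501 and 0.639 in S2-028, and was not called in any comparison. H4C5, H4C11 and H4C12 were not called either, with log2 fold changes of 0.19, -0.42 and -0.48 in S2-028 against S2-007.

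**Figure D3:**
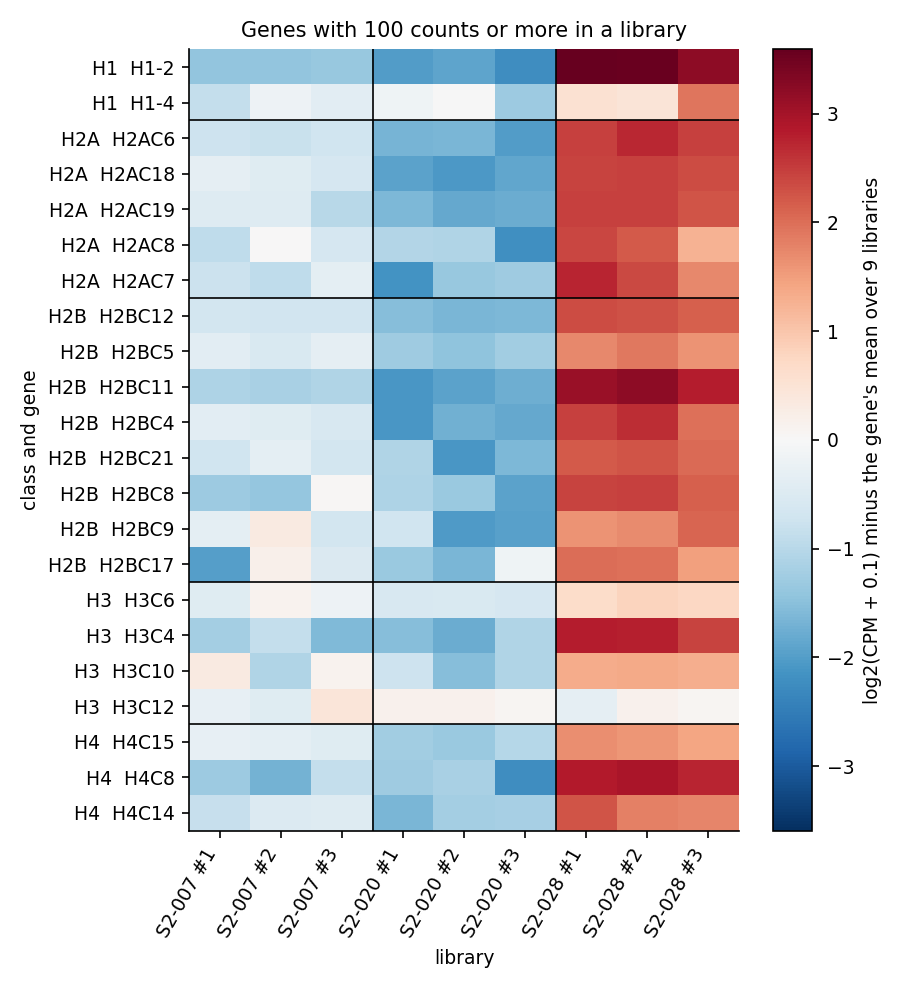
Log2(CPM + 0.1) of the 22 members with at least 100 counts in a library, as the difference from each gene's mean over the 9 libraries (colour), with libraries in columns and genes in rows by class. The S2-028 columns are high for the genes shown except H3C12, whose log2 fold change against S2-007 was 0.03, and the S2-020 columns are the lowest for most genes of the H2A and H2B classes.

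Levels of different genes can be compared only per length. This was done for members with a RefSeq model under 1000 bases, and for H2BC21, whose longer model is a single exon. The GENCODE annotation gives H2AC6, H2BC11 and H4C8 further transcripts, with 1668, 1046 and 2163 exon bases in place of 519, 480 and 409. Their values per kb and their ranks therefore depend on the model used. Among the members compared per kb of gene length, H1-2 was the highest in S2-028, at 475 CPM per kb. It was followed by H2AC6 at 109, H2BC11 at 51.3, H4C8 at 25.1, H2AC18 at 22.8 and H2AC19 at 22. Neighbours among the last 3 overlapped between libraries. In S2-007, H1-2 was also first among the members compared, at 16.2 CPM per kb, followed by H2AC6 at 11. H2BC11 was at 2.66 and H4C8 at 1.25 there, below H2AC18 at 2.98. H2BC12 and H4C15, the H2B and H4 members with the most counts, were left out of these ranks. H2BC12 has 495 exon bases in GENCODE and had a mean of 442 CPM in S2-028 and 57.9 in S2-007. For H1-2 these were 731 bases, 347 CPM and 11.9 CPM, so its first rank holds only among the members compared.

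A model of at least 1000 bases was annotated for 8 members (H2BC4, H2BC5, H2BC12, H2BC18, H2BC21, H3C4, H3C6 and H4C15), and 58 had a compact model of between 386 and 797 bases. Of the 8, all were called higher in S2-028 than in S2-007, compared with 20 of the 58, and 5 were called lower in S2-020 than in S2-007, compared with 7 of the 58. Over all genes tested, these shares were 10.2% and 12.1%, and 12.1% were called higher in S2-028 than in S2-020. Depth differed between these groups too, since 7 of the 8 but 15 of the 58 reached 100 counts in a library, and its part in the difference was not tested. The 8 genes held 77.0% of all histone counts in S2-007, 73.1% in S2-020 and 58.4% in S2-028. For all 4 members with AATAAA within 20 bases of the stem-loop, S2-028 was called higher than both other lines and S2-020 lower than S2-007. They held 14.3% of the histone counts in S2-007, 14% in S2-020 and 33.6% in S2-028, mostly through H1-2. Among the other 62 members, 24 were called higher in S2-028 than in S2-007 and 8 lower in S2-020 than in S2-007. Here too depth differed, since 4 of the 4 but 18 of the 62 reached 100 counts in a library, and its part was not tested. The tested members with AATAAA at over 100 bases had log2 fold changes between -0.48 and 4.33 in S2-028 against S2-007. Among them, H4C8, H2BC11 and H3C4 had it at 2614, 1657 and 2555 bases. Other forms of the hexamer were not searched, and the part of its distance in the differences was not tested.

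**Figure D4:**
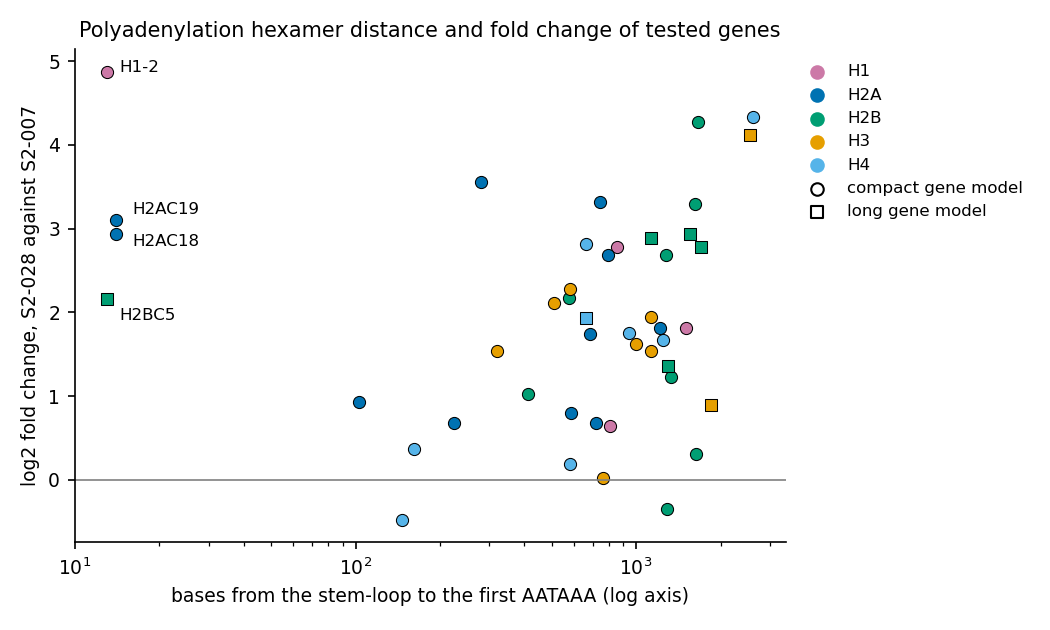
Log2 fold change of S2-028 against S2-007 (vertical axis) over the distance from the stem-loop to the first AATAAA in bases (horizontal log axis), 1 point per tested member with a hexamer found, coloured by class and shaped by gene model. The 4 members at 13 or 14 bases lie between 2.16 and 4.88, and members at over 100 bases lie between -0.48 and 4.33.

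By position, the members called higher in S2-028 than in S2-007 were 8 of 11 on chromosome 1. On chromosome 6 they were 14 of 32 between 26017032 and 26285534, 2 of 5 between 27132316 and 27147562, 4 of 16 between 27807479 and 27893891, and 0 of 2 (H2AC1 and H2BC1, not tested) at the distal end near 25726063. Among the groups with tested members the share was lowest in the group of 16, in which 3 members reached 100 counts. Of all genes tested, 10.2% were called higher and 8.19% lower in S2-028 than in S2-007, and 9.57% and 12.1% in S2-020 than in S2-007. Other genes lying between the first and last member on chromosome 6 were called higher in 6 of 33 cases and lower in 0, with a median log2 fold change of 0.33, and 3 of these 33 were higher and 2 lower in S2-020 than in S2-007. Within 1 Mb outside the members on chromosome 6, 6 of 27 genes were called higher and 1 lower. On chromosome 1, 2 other genes between the first and last member were tested, of which 1 was called higher (median log2 fold change 2.36), and 1 of 42 genes within 1 Mb outside was called higher and 4 lower.

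H2A and H2B genes are often transcribed in opposite directions from a shared promoter region, and 11 such pairs were found, with starts between 194 and 248 bases apart. Both genes were tested in 8 pairs. In S2-028 against S2-007, both were called higher in 2 pairs, H2AC6 with H2BC4 and H2AC8 with H2BC8, only 1 gene was called in 5 pairs, and no pair was called in opposite directions. Against S2-020, both were called higher in 3 pairs. The partners could differ widely. H2AC11, at 0.842, 0.658 and 0.652 CPM in S2-007 and 1.05, 1.42 and 0.984 in S2-028, lies 248 bases from H2BC11, which was 19.3-fold higher in S2-028. H2AC12, which lies 248 bases from H2BC12, was at a mean of 0.117 CPM in S2-007 and 0.178 in S2-028, too low to be tested. In the H2B class, 8 of the 14 members with ATTTGCAT in the window were called higher in S2-028 than in S2-007, and 1 of the 3 without it. In the H2A class these were 3 of 7 and 4 of 8. Among all genes tested, the share called higher was 10.2%. At least 100 counts in a library were reached by 7 of the 14 and 1 of the 3 in H2B, and by 3 of the 7 and 2 of the 8 in H2A. The part of depth in these counts was not tested.

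Genes of S phase and of histone mRNA metabolism were then examined as lists. Of all genes tested, 10.2% were called higher and 8.19% lower in S2-028 than in S2-007. In S2-020 against S2-007 these shares were 9.57% and 12.1%, and in S2-028 against S2-020 they were 12.1% and 10.1%. Of 31 genes of DNA replication and S phase, 8 were called higher and 0 lower in S2-028 than in S2-007 by edgeR (21 and 0 at an unadjusted p under 0.05), with a median log2 fold change of 0.30. The 3 with the smallest adjusted p were GINS3, a subunit of the replicative helicase complex (1.55, SE 0.072), CDK2, the S phase kinase (1.00, SE 0.0653), and TK1, the thymidine kinase (0.91, SE 0.0611). In S2-020, where histone genes were lower than in S2-007, 10 of the 31 were called higher and 0 lower by edgeR (23 and 1 at an unadjusted p under 0.05), with a median of 0.33, led by CDT1, a licensing factor (0.99), TYMS, the thymidylate synthase (0.92), and CDK2 (0.83). Between S2-028 and S2-020, 1 was higher, namely CDC45 (1.43, SE 0.0777), and 4 were lower, with a median of -0.02. Of the 8 genes of mitosis and proliferation, 0 were called in S2-028 against S2-007 by edgeR (4 higher and 2 lower at an unadjusted p under 0.05), with log2 fold changes between -0.29 and 0.46.

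Of 18 genes for histone gene transcription and mRNA 3′ ends, 1 was called higher and 0 lower in S2-028 than in S2-007 by edgeR (8 and 3 at an unadjusted p under 0.05). This was CSTF2, a subunit of the cleavage stimulation factor, with 30.6, 32.5 and 35.8 CPM in S2-007, 46.5, 41.5 and 45.6 in S2-020, and 86.3, 72.2 and 85.8 in S2-028. The lines did not overlap, and the log2 fold change against S2-007 was 1.31 (SE 0.0793, adjusted p = 2.02e-11). SLBP, which binds the stem-loop, had 75.5, 76.7 and 78.2 CPM in S2-007, 80.8, 85.3 and 83.2 in S2-020, and 88.3, 81.4 and 87.4 in S2-028. Its log2 fold change of 0.16 in S2-028 against S2-007 (SE 0.0621, adjusted p = 0.0505) did not pass the test. NPAT, the coactivator of histone gene transcription, was within 55.6 and 63.4 CPM in every library, with a log2 fold change of 0.07 (SE 0.0621, adjusted p = 0.495). LSM10, a component of the U7 particle, was called higher in S2-020 than in S2-007 by 0.75 and lower in S2-028 than in S2-020 by -0.82.

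The replication-independent histone variants have polyadenylated mRNAs. H2AX was listed with them, although its mRNA can end either in a stem-loop or in a poly(A) tail. It had 195, 203 and 217 CPM in S2-007, 228, 217 and 213 in S2-020, and 338, 327 and 308 in S2-028. It was called higher in S2-028 than in S2-007 (0.66, SE 0.0599, adjusted p = 1.07e-08). Of 18 histone chaperones, 1 was called higher in S2-028 than in S2-007, namely ATRX (1.03, SE 0.0581), and 0 lower (11 and 0 at an unadjusted p under 0.05).

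RNAs that end without a poly(A) tail were examined beside these lists. Their summed CPM over 25 genes was between 68.8 and 73.8 in S2-007, 66.3 and 72.1 in S2-020, and 51.9 and 53.9 in S2-028. Of 14 genes that passed the filter, 1 was called higher and 4 lower in S2-028 than in S2-007, with a median log2 fold change of -0.37, and RNU11 and RNU12 never rose above the floor. RN7SK, the RNA of the 7SK particle, had 2.07, 5.70 and 9.95 CPM in S2-007 and 2.48, 2.47 and 2.80 in S2-028. RMRP had 0.614, 3.63 and 4.18 in S2-007 and 0.902, 1.03 and 0.951 in S2-028. Both were called lower in S2-028 (-1.18 and -1.53) although their libraries overlapped. The part of poly(A) selection in the histone counts was not tested.

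**Figure D5:**
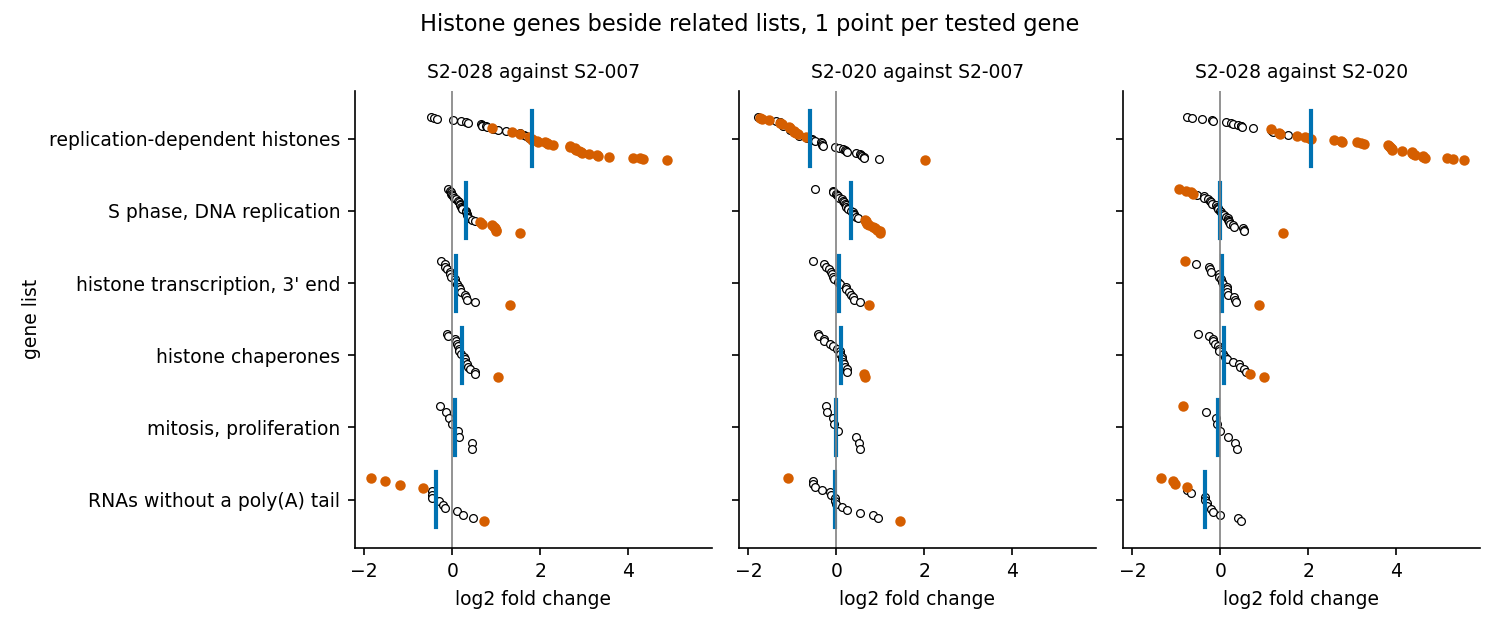
Log2 fold change (horizontal axis) of the tested members and of 5 related gene lists in the 3 comparisons, 1 point per gene, filled where called, with the median as a vertical bar. Genes at the floor in a line are drawn at their bound among the histones and left out of the other lists. The histone median is 1.81, -0.60 and 2.05 from left to right, and that of the S phase genes is 0.30, 0.33 and -0.02.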

How the data were processed

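There were 3 RNA libraries of each line. The authors selected poly(A) RNA and made strand-specific libraries. Their processing notes name Trimmomatic 0.39, BWA 0.7.17, SAMtools 1.12, edgeR 3.16.5 and GRCh38.p14, whereas the methods give another edgeR version for the normalization, which does not touch the raw counts used here. The deposited values are raw counts per gene. The counting tool and its use of strand and of reads with several matches are not given in the sources used here. BWA does not join reads across introns. Of all counts between 1 and 20, 75.3% were even (87.2% among the members), so a count may stand for fewer fragments than its value. The 18 deposited columns of signal scaled by the authors (to library totals or by TMM) and 2 lines that name no gene were not used. Libraries of a line differed by more than sampling noise (chi-square per gene at least 7.95).

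The analysis used edgeR 4.0.16 (R 4.3.3), with filterByExpr (minimum count 10, minimum total 15), TMM, and the quasi-likelihood F-test with the 6 libraries of the lines compared. The methods name a likelihood ratio test, which was an alternative, as were DESeq2 1.42.0 and those in the closing section. CPM use TMM factors of all 9 libraries. Sequences came from hg38 with GENCODE 44 stop codons and from RefSeq tables of GRCh38.p14, and shared sequence was counted in words of 31 bases of GENCODE transcripts. The test was checked on simulated counts. Members and lists were chosen with earlier results of these data known. The lists held 31 genes of S phase and DNA replication, 18 of histone gene transcription and mRNA ends, 12 replication-independent variants, 18 chaperones, 8 of mitosis and proliferation, 25 RNAs without a poly(A) tail, and markers of epithelial, ductal tumour, fibroblast, leukocyte and endothelial cells. Values in every library are given for the 4 members of each class with the highest mean CPM and the called member with the smallest adjusted p per class, direction and comparison, and for few others named by their values. Per list, at most 3 called genes with the smallest adjusted p per comparison are named, besides SLBP, NPAT and H2AX. The result of 1 gene that the rule names, and the counts of its list, are not reported here.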

Additional observations from a re-analysis of the deposited data

How the results depend on the processing

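The counts of members called higher in S2-028 stood under the other tests, scalings and fits run, apart from the stricter filter. With at least 10 counts in every library, S2-028 was called higher than S2-020 for 19 members of 19 called, in place of 30, and 0 members were called higher in S2-020 than in S2-007, in place of 1. This filter tests fewer members. Over all alternatives, 23 to 31 members were called in S2-028 against S2-007, 11 to 18 in S2-020 against S2-007 and 19 to 33 in S2-028 against S2-020. Leaving out 1 library at a time, 0 to 1 members were called higher in S2-020 than in S2-007 and 0 to 1 lower in S2-028 than in S2-020, and 22 of 28, 10 of 13 and 24 of 30 calls stood whichever library was left out.

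The class sums depend on their most abundant member. Without it, the log2 ratios of S2-028 to S2-007, S2-020 to S2-007 and S2-028 to S2-020 were 1.47, -0.28 and 1.76 in H1, 2.44, -0.68 and 3.13 in H2A, 2.62, -0.87 and 3.48 in H2B, 2.17, -0.11 and 2.28 in H3, and 2.35, -0.073 and 2.42 in H4. The median of the tested members in place of the sum gave 2.30 and 2.82 in H1 for S2-028 against S2-007 and S2-020, 1.78, -1.14 and 2.32 in H2A for the 3 comparisons, 2.17 and 3.20 in H2B for S2-028 against S2-007 and S2-020, 1.44 in H3 for S2-028 against S2-020, and 1.67, -0.32 and 1.63 in H4. Library totals without TMM moved S2-020 against S2-007 to -0.999 in H2B and -0.853 in H4.

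Some members that were not called changed sign when 1 library was left out. The log2 fold change ranged from -0.14 to 0.37 for H3C12 in S2-028 against S2-007 and from -0.0042 to 0.53 in S2-020 against S2-007, from -0.23 to 0.42 for H1-4 and from -1.50 to 0.15 for H1-5 in S2-020 against S2-007, and from -0.56 to 0.13 for H4C3 in S2-028 against S2-020. The cause was not tested.

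Replicate numbers did not pair the samples (correlations of deviations between -0.022 and 0.014). With the replicate number as a block, 27, 14 and 31 members were called in the 3 comparisons, in place of 28, 13 and 30, and H1-4 was at -0.049 in S2-020 against S2-007. Members that failed the filter, among them the 6 never above 3 counts, could not be compared at this depth.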
